A study of Mus musculus with 6 samples.

Results

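The Serpinb genes encode the clade B serpins, and they were taken here as every gene row of the deposited matrices whose symbol starts with Serpinb, which gave 27 of 32285 genes. Their raw UMI counts were followed in dorsal skin of wildtype FVB male mice aged 55 to 57 days, whose back was shaved and waxed, a depilation that pulls out the hair shafts and starts a new hair cycle. Skin was taken before depilation (0 h), at 4 h and 16 h, and after 2, 4 and 6 days (2 d, 4 d and 6 d), digested with enzymes to single cells, and 1 10x Chromium 3′ library was made per time point. Each library mixed equal cell numbers of 2 mice that were processed independently and cannot be separated in the files, so library, mice and time cannot be told apart. With 1 library per time point no test between time points or cell classes was possible, and the 95% intervals given with levels, folds and shares cover counting error only.

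Serpins are protease inhibitors that offer a protease an exposed loop as bait and trap it by a large, covalent change of shape. The clade B members lack a classical secretion signal and act mainly inside cells, where they shield the cytosol from leaked lysosomal and granule proteases, and in the epidermis some take part in barrier formation and in the response to injury. Not all are inhibitors: maspin, the product of Serpinb5, does not block proteases in this way.

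The family lies in 2 groups on the mouse genome (mm10, GENCODE vM21). On chromosome 1, 11 members lie between positions 106861173 and 107610484, and on chromosome 13, 15 members lie between 32842092 and 34002794. No position was assigned to Serpinb9h. Of the members with a position, Serpinb3b (107153940 to 107278361) overlaps Serpinb3c (107271201 to 107278371) on the same strand, so reads of this pair are uncertain.

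The proximal promoters of 6 members are shown because these members lay past 2-fold between the 4 h and 0 h libraries in several of the classes described later, Serpinb2, Serpinb5 and Serpinb6a higher and Serpinb7, Serpinb12 and Serpinb3b lower at 4 h. Serpinb1a, which did so too, has no entry in the RefSeq table. Each is the run of 250 bases upstream of a transcription start site (RefSeq, GRCm38.p6). On the plus strand lie Serpinb2 at chr1:107511173-107511422, Serpinb5 at chr1:106860925-106861174, Serpinb7 at chr1:107422439-107422688 and Serpinb12 at chr1:106934199-106934448, and on the minus strand Serpinb6a at chr13:34002795-34003044 and Serpinb3b at chr1:107161115-107161364. Serpinb2, Serpinb6a and Serpinb12 have a second start site in the table, whose window is not printed. Capitals mark every match, on either strand, to the letters TGANTCA of an AP-1 site, TTGCNNAA of a C/EBP site and TATAAA of a TATA box, and no marked runs overlap.
Serpinb2: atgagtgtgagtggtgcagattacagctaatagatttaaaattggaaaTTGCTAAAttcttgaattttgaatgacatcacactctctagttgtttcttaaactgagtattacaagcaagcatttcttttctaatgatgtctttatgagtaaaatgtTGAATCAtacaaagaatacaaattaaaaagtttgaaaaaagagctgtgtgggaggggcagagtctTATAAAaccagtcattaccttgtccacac
Serpinb5: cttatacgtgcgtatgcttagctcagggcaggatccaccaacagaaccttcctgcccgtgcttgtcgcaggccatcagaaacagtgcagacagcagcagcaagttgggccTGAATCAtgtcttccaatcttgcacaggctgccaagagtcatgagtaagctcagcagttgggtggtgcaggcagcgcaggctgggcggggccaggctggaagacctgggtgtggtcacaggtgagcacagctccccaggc
Serpinb6a: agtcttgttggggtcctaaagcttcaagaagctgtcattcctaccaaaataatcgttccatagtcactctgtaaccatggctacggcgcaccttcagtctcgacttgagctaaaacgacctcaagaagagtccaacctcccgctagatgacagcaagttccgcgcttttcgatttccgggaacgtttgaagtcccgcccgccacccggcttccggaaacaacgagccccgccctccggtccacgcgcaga
Serpinb7: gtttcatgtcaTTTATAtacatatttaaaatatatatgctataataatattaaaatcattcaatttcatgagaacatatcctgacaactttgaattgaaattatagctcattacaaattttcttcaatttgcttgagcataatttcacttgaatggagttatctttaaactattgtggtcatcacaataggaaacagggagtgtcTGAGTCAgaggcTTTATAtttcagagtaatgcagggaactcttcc
Serpinb12: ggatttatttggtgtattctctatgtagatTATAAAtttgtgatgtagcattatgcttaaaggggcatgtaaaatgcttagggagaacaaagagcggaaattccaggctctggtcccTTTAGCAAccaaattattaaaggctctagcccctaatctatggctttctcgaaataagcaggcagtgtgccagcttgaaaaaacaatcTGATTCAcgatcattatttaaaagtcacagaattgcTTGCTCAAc
Serpinb3b: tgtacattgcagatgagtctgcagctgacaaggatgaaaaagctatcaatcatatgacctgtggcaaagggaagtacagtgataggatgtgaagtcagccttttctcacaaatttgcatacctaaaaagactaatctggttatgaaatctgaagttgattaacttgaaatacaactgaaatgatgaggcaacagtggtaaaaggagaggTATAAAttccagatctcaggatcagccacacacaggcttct

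Of the 27 members, 25 had a promoter in the RefSeq table, with 31 windows of 250 bases among 32851 for all genes, and Serpinb1a and Serpinb13 had none. The AP-1 letters were found in 7 of these 31 windows, from 6 members (Serpinb2, Serpinb5, Serpinb7, Serpinb8, Serpinb11 and Serpinb12), and in 6.75% of all windows. In Serpinb2 the AP-1 match lay 94 to 88 bases before the start site shown and 181 to 175 bases before the other, whose window overlaps the first. In Serpinb5 it lay 140 to 134 bases before the start, and in Serpinb7 and Serpinb12 45 to 39 bases before the start shown. Serpinb6a and Serpinb3b had no AP-1 match. Among the members shown, Serpinb2, Serpinb5 and Serpinb6a were higher and Serpinb7, Serpinb12 and Serpinb3b lower at 4 h. Whether these letters have a part in the levels was not tested. A TATA match was found in 10 windows from 8 members, against 12.4% of all windows, among them Serpinb2 at 29 to 24 bases, Serpinb7 at 33 to 28 bases and Serpinb3b at 41 to 36 bases before the start shown. C/EBP letters were found in 4 windows from 3 members, against 9.56% of all windows. These matches are a description of letters and no evidence of binding.

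The libraries held 72634390 to 112370376 UMIs and 61031 barcodes in all, of which 50502 remained after filters on genes, mitochondrial UMIs and doublets. Median UMIs per barcode ranged from 5857.5 to 10351 and median mitochondrial UMIs from 2.54% to 5.08% over libraries, and pairs of libraries shared 7 to 47 barcode sequences. Cells were clustered without any serpin gene and named from marker lists: basal, suprabasal and granular interfollicular epidermis (IFE.B, IFE.SB, IFE granular), basal and suprabasal upper hair follicle (uHF.B, uHF.SB), outer bulge (OB, with OB1, OB2 and OB3), inner bulge (IB), inner root sheath (IRS1 to IRS3), sebaceous gland (SG), melanocytes, Langerhans cells and T cells. OB1 joined a cluster led by Krt24 and Cd34 and a cluster led by Gnmt and Sfrp1. They held 269 and 50 cells at 0 h, 169 and 89 at 4 h, and 168 and 1514 at 4 d. The cell makeup of OB1 and OB thus differed between libraries, and its part in their levels was not tested. OB also took in a cluster led by Cpa4, Krt8 and Itga2, the Cpa4 cluster, which held 0, 232 and 143 cells in the first 3 libraries. A follicle cluster led by Flg and Krt1, called the HF Krt1 cluster, was kept apart. IFE granular cells had medians of 23954 to 39229 UMIs per library against 6070 to 11000 in IFE.B, and doublets left in them were not tested for.

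In whole libraries the family made up 2183, 3105, 2134, 1925, 1089 and 1805 UMIs per 1000000 UMIs of the library (CPM) in order of time. The 4 h library was the highest and the 4 d library the lowest, and these values move with the cell type makeup of a library. Serpinb2 and Serpinb5 together gave 70.1% to 77.7% of the family's UMIs in every library. Of the 27 members, 12 reached at least 20 CPM in a named class with at least 50 cells, Serpinb3c being the lowest of them at 28.4 CPM and Serpinb6d the highest of the others at 10.9 CPM. For a class, CPM is the sum of a gene's UMIs over its cells in a library, scaled by the sum of all their UMIs. Since the 3′ kit counts each captured transcript end once, CPM was not divided by gene length.

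The other 15 members were rare. In the analysed cells 9 of them had at least 1 UMI and 6 had none, namely Serpinb9c, Serpinb9d, Serpinb9e, Serpinb9f, Serpinb9g and Serpinb9h. Serpinb13, which inhibits lysosomal cathepsins, had 41, 31, 39, 44, 44 and 75 UMIs in the 6 whole libraries in order of time and reached 6.78 CPM in IFE granular cells at 6 d. Serpinb6d had 1, 9, 9, 235, 44 and 69 UMIs, and of the 235 at 2 d only 105 were in barcodes that passed the filters. Serpinb3a had 27, 10, 46, 146, 7 and 41 UMIs and was highest in IFE granular cells at 2 d, at 6.95 CPM. Serpinb6c (8.78 CPM), Serpinb6e (4.54), Serpinb1b (2.03), Serpinb1c (1.87), Serpinb9b (1.44) and Serpinb3d (0.134, from 1 UMI) give the highest class levels of the rest. Of the 9 with UMIs, Serpinb3a, Serpinb3d, Serpinb6c, Serpinb6d, Serpinb6e and Serpinb1c shared stretches of 50 bases within the last 500 bases of their transcripts with another member. Reads from such shared stretches cannot be told apart. The 12 abundant members shared no such stretch apart from Serpinb3b (7.1% of stretches) and Serpinb3c (5.76%).

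**Figure D1:**
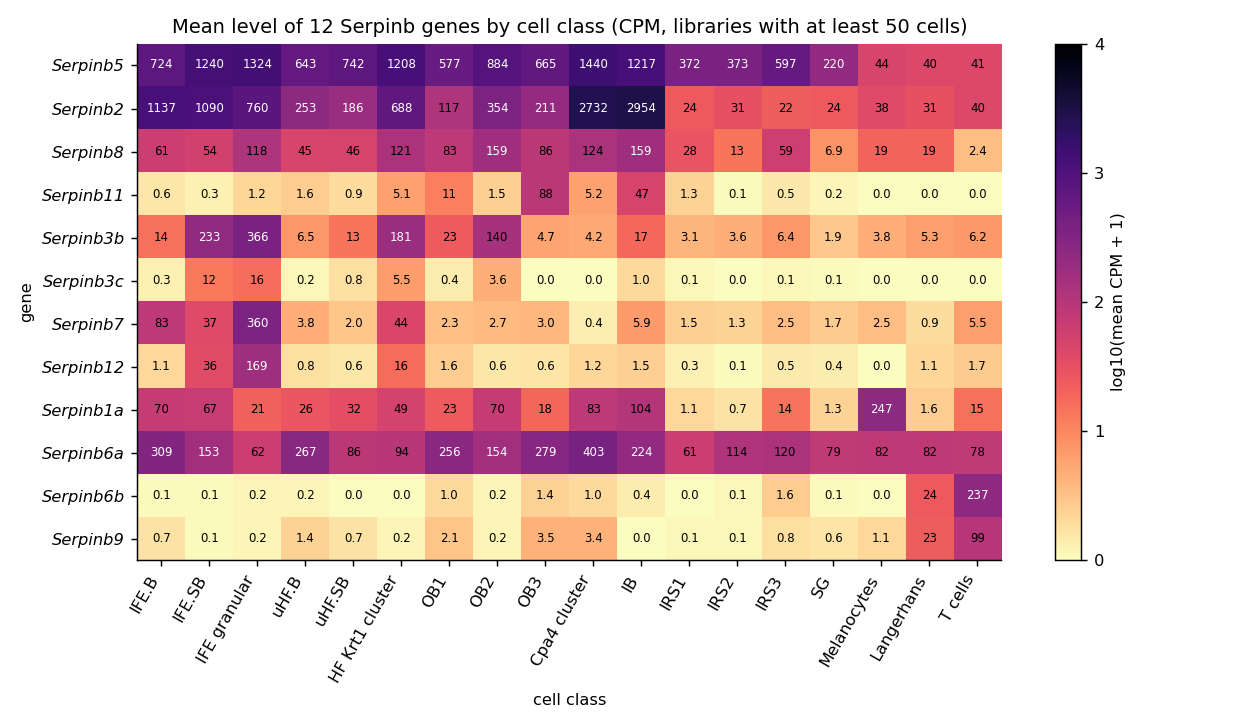
Mean level (CPM) of the 12 abundant Serpinb genes (rows) by cell class (columns), over the libraries in which the class has at least 50 cells. Dermal papilla and fibroblast cells and the unnamed cluster led by Gzmc, Ltb and Il7r are not drawn. Colour is log10(mean CPM + 1) and the number in each cell is the mean. Serpinb5 and Serpinb2 are high in all IFE classes. Among the classes drawn, Serpinb7 and Serpinb12 are highest in IFE granular cells, Serpinb11 in OB3, and Serpinb6b and Serpinb9 in T cells.

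Cell classes held different members. In IFE granular cells the means over the 6 libraries were 1324 CPM for Serpinb5, 760 for Serpinb2, 366 for Serpinb3b, 360 for Serpinb7 and 169 for Serpinb12. In IFE.B the mean of Serpinb2 (1137 CPM) was above that of Serpinb5 (724), with Serpinb6a at 309 CPM and Serpinb7 at 83 CPM. In OB1 Serpinb5 (577 CPM) and Serpinb6a (256) had the highest means, and Serpinb2 had 117. In T cells Serpinb6b led with 237 CPM, followed by Serpinb9 with 99. Differences between classes were not tested, as the classes of a library share its cells and preparation.

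The comparison of the 4 h and 16 h libraries with 0 h asks how early after depilation the family differed. A member was counted as higher or lower at a 2-fold difference in CPM, among genes with a mean of at least 5 CPM over the 6 libraries of the class. At 4 h the members past 2-fold were 2 higher and 3 lower of 7 in IFE.B (35.6% of all genes tested were past it in either direction), 3 higher and 2 lower of 9 in IFE.SB (32.8%), and 2 higher and 2 lower of 9 in IFE granular cells (23.8%). They were 3 higher and 1 lower of 6 in uHF.B (36.9%), 2 higher of 6 in uHF.SB (35.5%), and 3 higher and 2 lower of 7 in OB (34.9%). In IFE granular cells Serpinb1a is among those counted as higher. Its mean there, 20.8 CPM, passed the filter through the 4 h library (106 CPM, against a median of 4.22 over the libraries).

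At 16 h fewer members were past 2-fold in each of these classes. The count was 1 lower of 7 in IFE.B (8.91% of all genes), 1 higher and 1 lower of 9 in IFE.SB (8.85%), 2 higher of 9 in IFE granular cells (7.26%), 1 lower of 6 in uHF.B (25.0%), 1 higher of 6 in uHF.SB (24.6%), and 2 higher and 1 lower of 7 in OB (20.2%). Both comparisons use the same 0 h library. Serpinb1a, with 6.23 CPM at 16 h, is again among those counted as higher in IFE granular cells. The median log2 fold of the members tested was between -0.24 and 0.87 at 4 h, where that of all genes was between -0.00 and 0.23, and between -0.30 and 0.46 at 16 h, where that of all genes was between 0.16 and 0.33. With trimmed mean of M values (TMM) scaling the medians of all genes were between -0.02 and 0.26 over the 12 comparisons. Members lay on both sides of 0 h, and they are described gene by gene.

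**Figure D2:**
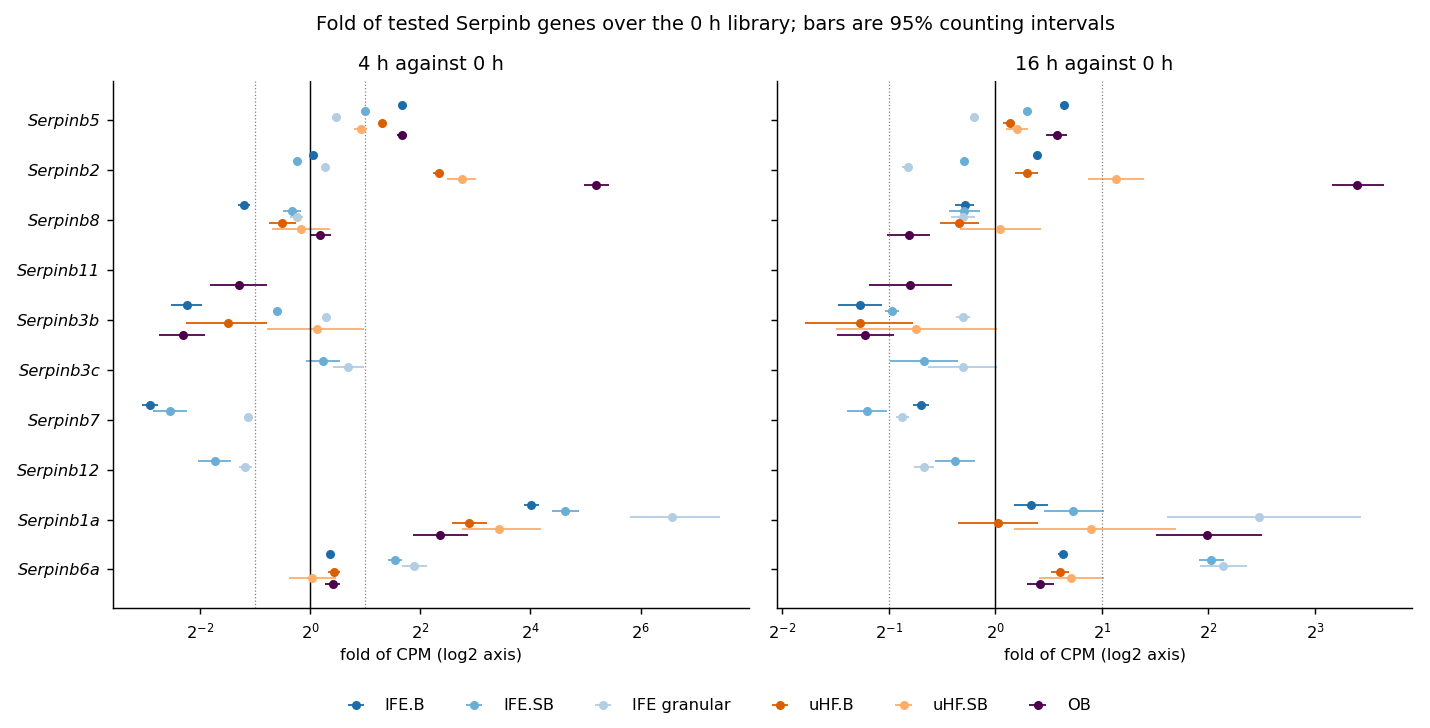
Fold of CPM over the 0 h library (log2 axis, own range in each panel) for the Serpinb genes tested in 6 keratinocyte classes (colours), at 4 h on the left and 16 h on the right; bars are 95% counting intervals and dotted lines mark 2-fold. Serpinb1a lies right of 2-fold in all 6 classes at 4 h, Serpinb2 only in the 3 follicle classes, and Serpinb7 lies left of it in the 3 IFE classes.

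Serpinb1a, the mouse counterpart of the inhibitor of neutrophil elastase and cathepsin G, was low at 0 h and was higher at 4 h in all 6 keratinocyte classes. In IFE.B it had 18.0 CPM (16.5 to 19.7) before depilation and 292 (286 to 298) at 4 h, then 22.8, 18.9, 27.5 and 43.6 in the 4 later libraries. In IFE.SB the order of time gave 12.6, 311, 20.9, 15.7, 17.7 and 24.4 CPM. The 4 h library stood alone in both classes, above every other library. The fold at 4 h was 16.2 (14.8 to 17.8) in IFE.B, 24.7 (21 to 29.3) in IFE.SB and 94.8 (56.2 to 174) in IFE granular cells, where the 0 h level was 1.12 CPM from 14 UMIs. In the follicle it was 7.42 (5.97 to 9.3) in uHF.B, 10.8 (6.74 to 18.3) in uHF.SB and 5.11 (3.65 to 7.33) in OB. With a doubled clustering resolution the fold in uHF.SB was 28.2 at 4 h and 6.92 at 16 h. At this resolution uHF.SB held 75, 81 and 235 cells at 0 h, 4 h and 16 h. At 0 h and 4 h this is below the 100 cells asked of a compared class in the main setting.

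After 4 h Serpinb1a was lower again in each of the 6 classes. OB had 15.6, 79.8, 62, 26, 7.86 and 21.4 CPM in order of time, so that at 16 h its fold was still 3.97 (2.85 to 5.66), against 1.26 in IFE.B and 1.02 in uHF.B (0.887 with TMM scaling). With the Cpa4 cluster left out, a choice made after the values were seen, OB had 60.1 CPM at 4 h and 51.1 at 16 h. Melanocytes had the highest mean of any class, with 560 CPM (451 to 688) at 4 h and 313 at 16 h, and still 98.7 CPM (84.2 to 115) at 4 d and 121 at 6 d. At 4 d an unnamed cluster led by Gzmc, Ltb and Il7r had 131 CPM (94.6 to 176). At 0 h melanocytes had 140 CPM from only 30 cells. Over the whole library, with no cell class involved, Serpinb1a had 947 UMIs at 0 h and 16494 at 4 h, which is 12.8 and 227 CPM.

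The share of IFE.B cells with a Serpinb1a UMI was also higher at 4 h. After each cell was thinned to 2000 UMIs, 3.13% of IFE.B cells had one at 0 h and 35.3% at 4 h (11.3% and 69.1% without thinning). In OB the shares were 3.43% at 0 h, 8.65% at 4 h and 9.13% at 16 h (6.78%, 16.1% and 23.6% without thinning), so there the share at 16 h was not below that at 4 h although the level was. In T cells, taken as the class that should show free RNA, the thinned shares were 0% of 173 cells, with an upper bound of 2.11%, and 6.07%. Thinning left out 10 and 17 IFE.B cells and 34 and 130 T cells, whose medians before it were 8692 and 9026 UMIs in IFE.B and 2692 and 2214 in T cells. The 4 h level of Serpinb1a was 52.5 CPM in T cells but 7.09 in Langerhans cells and 5.24 in SG cells. In OB without the Cpa4 cluster it was 60.1 CPM (50.2 to 71.3) at 4 h, an interval that holds the T cell level. The part of free RNA in the OB fold was not tested.

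**Figure D3:**
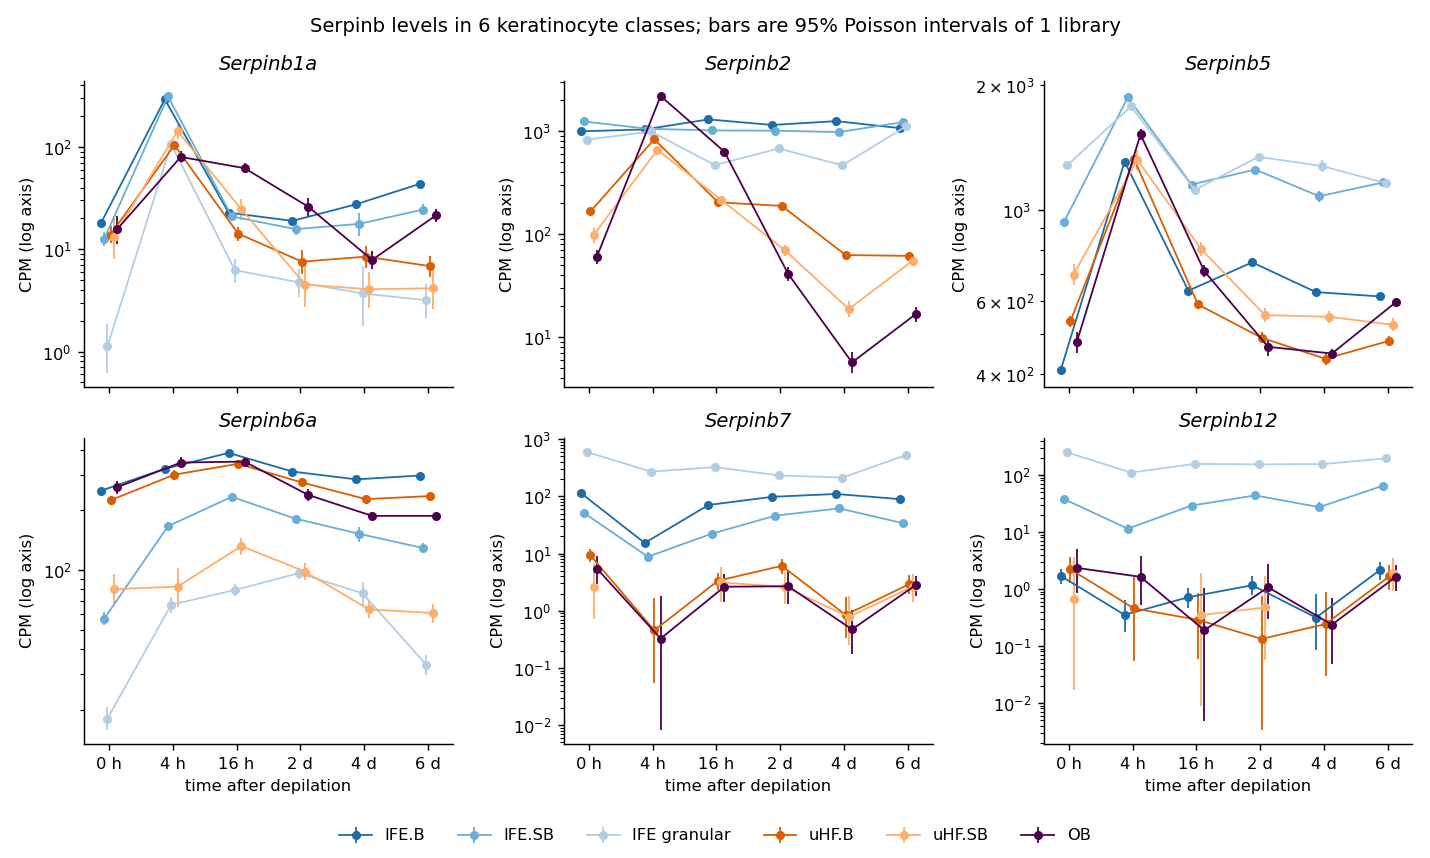
Levels of 6 Serpinb genes (CPM, log axis, own range in each panel) against time after depilation in 6 keratinocyte classes (colours); bars are 95% Poisson intervals of 1 library and a library with 0 UMIs is not drawn. Serpinb1a and Serpinb5 peak at 4 h in all 6 classes, Serpinb2 in the 3 follicle classes, and Serpinb7 and Serpinb12 have their lowest IFE.SB level at 4 h.

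Serpinb2, plasminogen activator inhibitor 2, blocks urokinase and is abundant in stratified epithelia. Its level in IFE.B and IFE.SB differed little between libraries, with 999, 1042, 1304, 1151, 1255 and 1073 CPM in IFE.B and 982 to 1245 CPM in IFE.SB, whereas IFE granular cells had 829, 995, 469, 680, 467 and 1120 CPM. In OB it was 60.1 CPM (51 to 70.4), 2201 (2149 to 2254), 633, 41, 5.66 and 16.7 in order of time. OB was far below IFE.B at 0 h and from 2 d on, and above it at 4 h only with the Cpa4 cluster counted in: without that cluster, which had no cells at 0 h, OB had 754 CPM (718 to 791) at 4 h against 1042 in IFE.B. In uHF.B the values were 166, 836, 204, 188, 62.6 and 61.5 CPM, and in uHF.SB 98, 660, 215, 69.5, 18.7 and 55.1 CPM.

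The fold of Serpinb2 at 4 h was 36.6 (31.2 to 43.2) in OB, 6.74 (5.62 to 8.11) in uHF.SB and 5.04 (4.72 to 5.38) in uHF.B, against 1.04 in IFE.B, 0.849 in IFE.SB and 1.20 in IFE granular cells. At 16 h it was 10.5 (8.96 to 12.5) in OB and 2.19 (1.83 to 2.64) in uHF.SB, or 1.93 in uHF.SB with TMM scaling, and 0.566 in IFE granular cells. With a doubled clustering resolution the uHF.SB fold was 17.4 at 4 h and 6.1 at 16 h, and the uHF.B fold 8.32 and 2.33. These rest on fewer cells, with 75 and 81 in uHF.SB and 429 and 320 in uHF.B at 0 h and 4 h. A large part of the OB fold was carried by the Cpa4 cluster, which had 5739 CPM at 4 h and 2435 at 16 h and has Serpinb2 among its 10 leading genes. Without it, a choice made after the values were seen, the OB fold was 12.5 at 4 h and 3.74 at 16 h. The parts of the bulge with cells at each time pointed the same way: OB1 had 69.2 CPM at 0 h and 354 at 4 h, OB2 37.9 and 1733, and OB3 36.5 and 1018. IB had 4837 CPM at 4 h and 2945 at 16 h from 118 and 95 cells, and 831 CPM at 0 h from 22 cells.

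Shares of cells gave the same order for Serpinb2 in OB. After thinning they were 11.8%, 46.5%, 31.9%, 6.49%, 1.37% and 3.65% in order of time (23.7%, 57.1%, 50.2%, 15.1%, 3.24% and 7.82% without thinning), from OB cells with medians of 4413 to 6484 UMIs. T cells, with medians of 2002 to 2692 UMIs, had thinned shares of 6.36%, 9.35%, 12.3%, 6.65%, 2.34% and 2.26% (8.7%, 11.6%, 14%, 7.81%, 2.71% and 5.15% without thinning). The OB share was above the T cell share, with intervals that did not overlap, at 4 h and 16 h. At 0 h the intervals overlapped, and OB had 60.1 CPM of Serpinb2 against 32.7 in T cells. The Serpinb2 folds in OB thus rest on a 0 h level near the T cell background. From 2 d on the OB share lay at this background, as did the level in OB, against 44.3, 10.8 and 21 CPM in T cells. The late OB values are therefore not read as expression. Thinning left out 6 to 101 OB cells and 34 to 390 T cells per library.

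**Figure D4:**
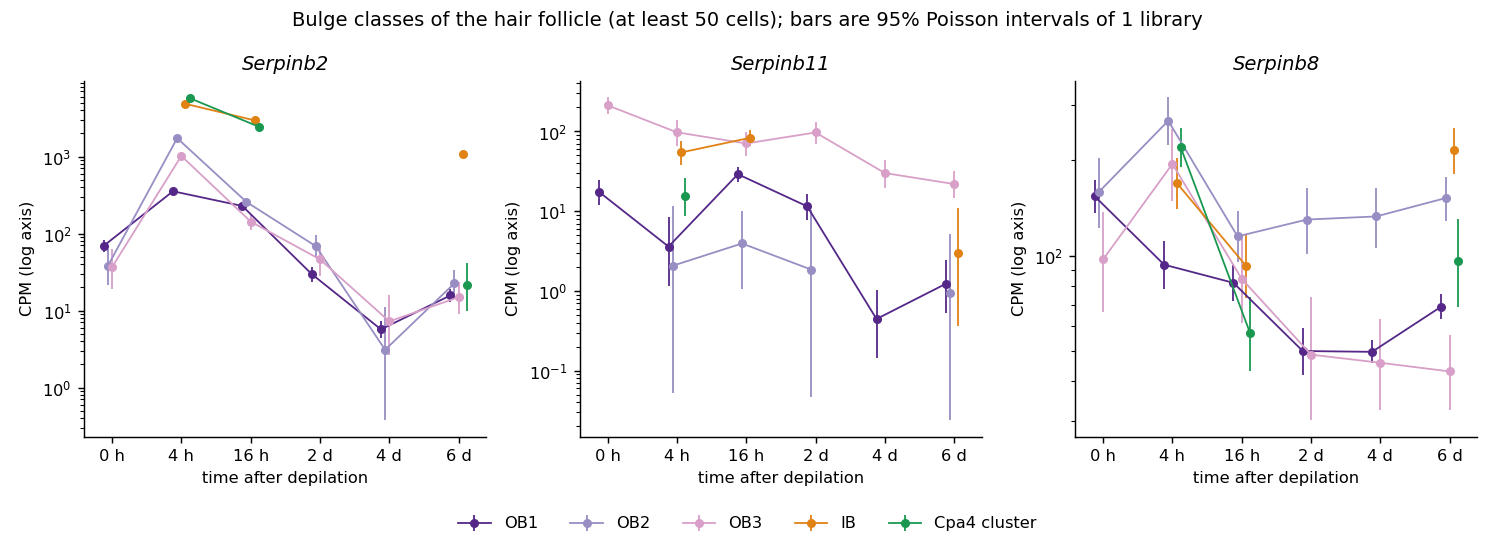
Levels of Serpinb2, Serpinb11 and Serpinb8 (CPM, log axis, own range in each panel) against time in the outer bulge classes OB1, OB2 and OB3, the inner bulge (IB) and the Cpa4 cluster, where a class has at least 50 cells; bars are 95% Poisson intervals of 1 library. Serpinb2 is highest at 4 h in all of them, and Serpinb11 is highest in OB3 at 0 h.

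The genes of plasminogen activation, the pathway in which Serpinb2 acts, were followed as a list of 9. In OB at 4 h 5 of 7 tested were higher and 1 was lower. The median log2 fold was 1.65 against -0.00 for all genes, of which 34.9% were past 2-fold. Plaur, the urokinase receptor, had 1.17 CPM (3 UMIs), 59.9, 13.7, 8.31, 2.52 and 4.33 CPM, and Plau, urokinase itself, 1.17 (3 UMIs), 12.4, 9.01, 4.02, 3.62 and 2.71 CPM. Plau and Plaur thus had their highest OB level in the same library as Serpinb2, at far lower CPM. These OB values include the Cpa4 cluster, with 0 cells at 0 h and 232 at 4 h, and its part in them was not tested. At 16 h 3 of the 7 list genes tested were higher in OB (median 0.86 against 0.20, with 20.2% of all genes past 2-fold). In IFE.B 3 of 6 were higher and 2 lower at 4 h (35.6% of all genes past 2-fold), and 0 higher and 1 lower at 16 h (8.91%). Plasminogen (Plg) had 0 UMIs in OB in all 6 libraries.

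Serpinb5 was the member with the most UMIs at 4 h. In IFE.B it had 409, 1307, 636, 745, 631 and 616 CPM in order of time, and in OB 477, 1521, 709, 465, 448 and 596. In IFE granular cells the values were 1279, 1777, 1116, 1342, 1274 and 1158 CPM. All 6 classes had their highest level at 4 h, and the granular cells, which were highest at 0 h, differed least. The fold at 4 h was 3.19 (3.13 to 3.26) in IFE.B, 3.19 (2.99 to 3.4) in OB, 2.47 (2.37 to 2.57) in uHF.B, 2.00 (1.96 to 2.05) in IFE.SB, 1.90 (1.74 to 2.06) in uHF.SB and 1.39 (1.36 to 1.42) in IFE granular cells. The IFE.SB fold was 1.80 with TMM scaling, and that in OB was 2.60 without the Cpa4 cluster. At 16 h the folds ranged from 0.873 in IFE granular cells to 1.56 in IFE.B.

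Serpinb6a, a broadly expressed inhibitor of cathepsin G, was the member most evenly spread over classes, with means of 62 to 403 CPM in the epithelial classes outside the root sheath and of 78 to 82 in melanocytes, Langerhans cells and T cells. It differed most where it had been low. In IFE.SB it had 57, 166, 233, 181, 152 and 129 CPM, and in IFE granular cells 18, 67, 79.5, 96.6, 76.5 and 33.5. All later libraries were above 0 h in these 2 classes, with folds in IFE.SB of 2.91 (2.67 to 3.19) at 4 h and 4.08 (3.76 to 4.43) at 16 h, and in IFE granular cells of 3.71 (3.17 to 4.36) and 4.41 (3.79 to 5.14). In IFE.B, with 250 CPM at 0 h, it was 322 at 4 h and 387 at 16 h. In uHF.SB, with 80.3 CPM at 0 h, its fold was 1.03 at 4 h and 1.64 at 16 h. The HF Krt1 cluster, with 57.4 CPM at 0 h, had folds of 1.47 at 4 h and 2.34 at 16 h.

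Serpinb7 and Serpinb12 had their highest means in IFE granular cells and were lower at 4 h in the IFE classes in which they were tested. Serpinb7, whose human counterpart is mutated in a hereditary palmoplantar keratosis, had 593, 270, 324, 232, 213 and 527 CPM in IFE granular cells. In IFE.B it had 114 (110 to 118), 15.3 (13.9 to 16.7), 70.6, 98.1, 110 and 89.4 CPM. Its mean was higher in basal IFE.B (82.9 CPM) than in suprabasal IFE.SB (37.3). The 4 h library was the lowest in IFE.B and IFE.SB, whereas in granular cells the level was lowest at 4 d. At 4 h Serpinb7 was 7.49-fold (6.80 to 8.26) lower than at 0 h in IFE.B, 5.80-fold (4.68 to 7.26) lower in IFE.SB and 2.19-fold (2.09 to 2.31) lower in IFE granular cells. In the HF Krt1 cluster it was not lower, with 48.6 CPM at 0 h and 57.3 at 4 h, a fold of 1.18 (0.867 to 1.6). At 16 h it was 2.31-fold (2.03 to 2.63) lower in IFE.SB, and its fold was 0.618 in IFE.B and 0.547 in granular cells.

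The share of IFE.B cells with a Serpinb7 UMI followed these levels, with 19.6%, 2.48%, 12.7%, 16.5%, 18.8% and 14.5% after thinning (54.4%, 12.3%, 46.1%, 47.7%, 43.5% and 42.6% without it). In T cells it was at most 2.31% after thinning (3.38% without), and at 4 h 0 of 214 T cells had a UMI. The 4 h share in IFE.B was above the upper bound of 1.71% for the T cells of the same library.

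Serpinb12, an inhibitor of trypsin-like proteases, had 248, 110, 156, 153, 155 and 195 CPM in IFE granular cells and 37.7, 11.4, 29, 43.7, 27.2 and 64.6 CPM in IFE.SB. It was lowest at 4 h in both. At 4 h it was 2.26-fold (2.09 to 2.44) lower than at 0 h in IFE granular cells (a fold of 0.518 with each cell weighted equally) and 3.32-fold (2.72 to 4.08) lower in IFE.SB. The HF Krt1 cluster had 5.4, 63.1, 3.02, 4.98, 0.602 and 16.2 CPM, but its 4 h level rests on few cells: 9 of 118 cells had a UMI, and 1 cell held 55 of the 87 UMIs, against 8 of 177 cells and 11 UMIs at 0 h.

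Serpinb3b and Serpinb3c belong to the squamous cell carcinoma antigen group, whose human members inhibit cysteine cathepsins or serine proteases. Serpinb3b had 439, 534, 356, 335, 316 and 218 CPM in IFE granular cells and 362, 239, 185, 239, 141 and 231 in IFE.SB. In OB it had 100, 20.2, 43, 35.1, 8.49 and 9.21 CPM, of which OB2 carried the highest levels, 298 CPM at 0 h and 70.3 at 4 h. The differentiated epidermis held at least 141 CPM in every library, and both IFE.SB and OB were highest at 0 h. In IFE.SB the fold of Serpinb3b at 16 h was 0.511, or 0.448 with TMM scaling. At 4 h Serpinb3b was 4.95-fold (3.74 to 6.65) lower in OB, 4.70-fold (3.87 to 5.75) lower in IFE.B and 2.80-fold (1.71 to 4.79) lower in uHF.B, against a fold of 1.22 in IFE granular cells. Its levels at 0 h, 4 h and 16 h were 19.4, 4.12 and 8.06 CPM in IFE.B and 12.7, 4.54 and 5.26 in uHF.B. T cells had 0.634 to 11.4 CPM of Serpinb3b over the libraries, and the part of free RNA in the IFE.B and uHF.B folds was not tested. A doubled clustering resolution gave a fold of 0.534 in uHF.B and 0.214 in place of 1.09 in uHF.SB (75 and 81 cells). At 16 h it was 2.32-fold (1.94 to 2.79) lower in OB, or at a fold of 0.525 without the Cpa4 cluster, 2.40-fold (2.08 to 2.78) lower in IFE.B and 2.41-fold (1.71 to 3.44) lower in uHF.B, which with a doubled resolution became folds of 0.525 and 0.554. Serpinb3c, which overlaps it, had 17.6, 28.4, 14.2, 3.36, 13.7 and 16.1 CPM in IFE granular cells.

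Serpinb8, an inhibitor of the convertase furin, was present in all keratinocyte classes and was past 2-fold at 4 h only in IFE.B among the 6 compared. There it had 72.6, 31.6, 59.6, 50.9, 88.3 and 63.3 CPM, 2.30-fold (2.13 to 2.49) lower at 4 h than at 0 h. In OB it had 147, 168, 83.9, 63.3, 53.6 and 76.1 CPM. OB1 went from 154 CPM at 0 h to 93.6 at 4 h, whereas OB2 went from 159 to 267 and OB3 from 97.2 to 195.

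Serpinb11, a little studied member, was nearly confined to the follicle. OB3 had 213 CPM (166 to 269), 97.6 (65.8 to 139), 70.7, 97.1, 30.1 and 21.9 in order of time, so the 0 h library was the highest and the 2 last ones the lowest. IB had 54.5 CPM at 4 h and 83.4 at 16 h, and OB1 17.4 CPM at 0 h and 29.1 at 16 h, while OB2 had at most 3.94 CPM and IFE.B at most 0.785. In OB as a whole it was 2.45-fold (1.73 to 3.50) lower at 4 h than at 0 h. After thinning, 31.1%, 18.5%, 10.8%, 11.4%, 5.92% and 1.76% of OB3 cells had a UMI (42.2%, 30.3%, 23%, 23.5%, 7.78% and 8.94% without thinning). T cells had 0 Serpinb11 UMIs in every library, which allows up to 5.7 CPM, or 3 UMIs, in the library with the fewest T cell UMIs. The OB3 values rest on 64 to 235 cells and 25 to 70 UMIs per library.

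Serpinb6b and Serpinb9 had their highest means in T cells. Serpinb6b inhibits granzyme A in the mouse, and Serpinb9 inhibits granzyme B and protects cytotoxic cells from their own granules. Serpinb6b had 198 (163 to 239), 394 (351 to 441), 173, 300, 73.6 and 286 CPM, and Serpinb9 67.3 (47.4 to 92.7), 207 (176 to 242), 89.4, 96.5, 18.4 and 113 CPM, from 207 to 781 cells per library. Both were highest at 4 h and lowest at 4 d. In a comparison added after these values were seen, the 4 h level was 1.99-fold (1.59 to 2.5) that of 0 h for Serpinb6b and 3.08-fold (2.14 to 4.54) for Serpinb9. An unnamed cluster led by Gzmc, Ltb, Il7r and Icos, with at least 50 cells only at 4 d and 6 d, had 39.5 and 63.5 CPM of Serpinb6b and 24.3 (10.5 to 47.9) and 110 (66 to 171) CPM of Serpinb9, and these Serpinb9 intervals held the T cell values of the same libraries. Langerhans cells had 4.78 to 52.7 CPM of Serpinb6b and 9.56 to 56.4 CPM of Serpinb9, and IFE.B at most 0.157 and 1.02 CPM. The thinned share of T cells with a Serpinb6b UMI was 26.6%, 50.9%, 24.1%, 37.3%, 13.8% and 35% (31.4%, 45.3%, 25%, 34.3%, 15% and 37.8% without thinning), against at most 0.0514% of IFE.B cells.

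The granule proteases themselves were listed beside them. Gzmb, granzyme B, had 1.82 CPM (1 UMI), 442, 74.2, 99.6, 108 and 48.4 CPM in T cells, and Prf1, perforin, 544, 1190, 1088, 726, 744 and 279. Gzmc had 21.8, 59.1, 162, 270, 169 and 174 CPM. Gzmb and Prf1 were highest at 4 h like both serpins, but Gzmc was highest at 2 d. Gzma, the target of Serpinb6b, had 0 UMIs in the T cells of all 6 libraries. No gene of this list of 16 reached the level tested in the 6 keratinocyte classes, where its summed level was 0.247 to 8.58 CPM at 0 h, 4 h and 16 h.

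**Figure D5:**
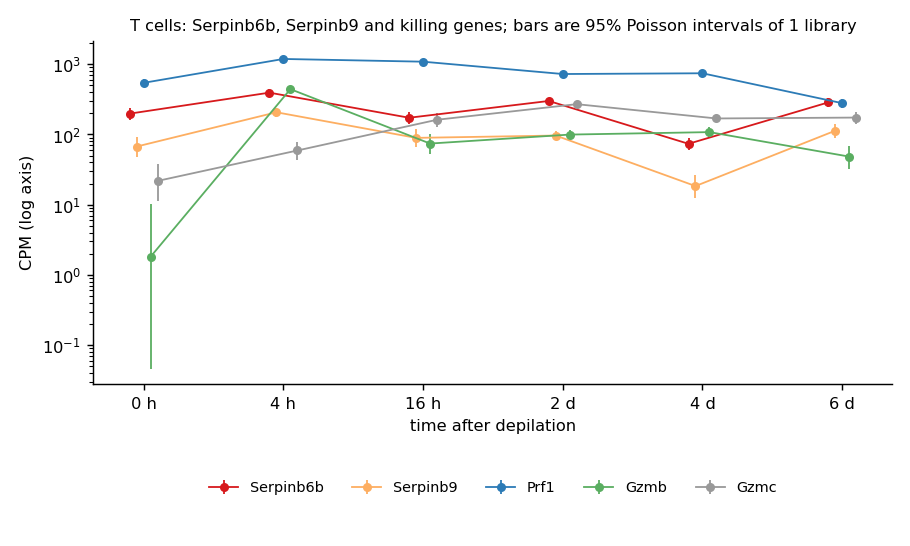
Levels of Serpinb6b, Serpinb9, Prf1, Gzmb and Gzmc in T cells (CPM, log axis) against time after depilation; bars are 95% Poisson intervals of 1 library with 207 to 781 cells. Serpinb6b, Serpinb9, Gzmb and Prf1 are highest at 4 h, and Gzmb has 1 UMI at 0 h.

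The other protease lists were counted in the same way. Of 11 cathepsins, 1 of 8 tested was higher and 2 lower in OB at 4 h (median log2 fold -0.20 against -0.00 for all genes, of which 34.9% were past 2-fold), the higher being Ctsl, cathepsin L, with 325, 1060 and 372 CPM in the first 3 libraries, and 1 was higher and 3 lower in IFE.B (-0.46 against 0.05). In IFE.B 35.6% of all genes were past 2-fold at 4 h. At 16 h the cathepsin counts were 0 higher and 1 lower of 8 in both classes, where 20.2% of all genes in OB and 8.91% in IFE.B were past it. The OB values of these lists include the Cpa4 cluster, whose part in them was not tested. In uHF.SB 2 cathepsins were higher and 1 lower at 4 h, and 3 higher and 1 lower at 16 h. Their summed level was 798, 1505 and 1878 CPM in the first 3 libraries. Of 18 epidermal serine proteases, 6 of 12 tested in uHF.SB were higher and 1 lower at 4 h (1.15 against 0.15 for all genes). At 16 h 7 were higher (1.03 against 0.31). In uHF.SB 35.5% of all genes were past 2-fold at 4 h and 24.6% at 16 h. Klk7, a kallikrein of the cornified layer, had 156 CPM in uHF.SB at 0 h and 934 at 4 h. In IFE granular cells 1 of 13 was higher and 2 lower at 4 h (23.8% of all genes past 2-fold). Of 35 serpins of other clades only 4 or 5 were tested in a class. At 4 h 2 of 5 were higher in OB (34.9% of all genes past 2-fold), against 1 higher and 2 lower of 4 in IFE.B (35.6%).

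Markers of injury and of tissue dissociation also differed between the libraries. All 10 tested genes of a list of wound keratinocyte genes were higher in IFE.SB at 4 h and at 16 h, with a summed level of 762, 14412 and 3526 CPM in the first 3 libraries. In IFE.B 4 of 8 were higher at 4 h (median log2 fold 1.91 against 0.05 for all genes). In OB 4 of 5 were higher and 1 lower (1.96 against -0.00). Of all genes tested, 32.8% in IFE.SB, 35.6% in IFE.B, 34.9% in OB and 23.8% in IFE granular cells were past 2-fold at 4 h. At 16 h the shares were 8.85% in IFE.SB, 8.91% in IFE.B and 7.26% in IFE granular cells. The OB values include the Cpa4 cluster. Of 16 dissociation stress genes 9 were lower and 1 higher in OB at 4 h, where their summed level was 44452, 31772 and 21827 CPM in the first 3 libraries. In IFE.B 6 were lower at both times, with a sum of 34578, 20827 and 19646 CPM. In IFE granular cells 1 was lower at both times, with a sum of 24388, 24949 and 21762 CPM and a median log2 fold of 0.24 at 4 h against 0.18 for all genes. The stress list was thus lower at 4 h and 16 h in OB and IFE.B but near its 0 h level in granular cells at 4 h, and its part in the Serpinb values was not tested.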

How the data were processed

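Single-cell RNA of dorsal skin was measured in 6 libraries, 1 per time point. Per the labels and the submitters' processing notes, the authors aligned the reads to mm10 with Cell Ranger 6.1.2 and deposited its filtered matrices of raw UMI counts, with no normalization. The treatment of intronic reads is not given in the sources used here.

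Barcodes were kept with 500 to 7000 detected genes and at most 10% mitochondrial UMIs (55177 of 61031). Per library, top-scoring cells by Scrublet (scanpy 1.11.5) were taken out at a rate of 0.8% per 1000 barcodes (4675 in all); the study's own doublet calls and cell labels were not used. Libraries were joined with Seurat 5.3.0 (2000 integration genes, 30 principal components) and clustered at a resolution of 0.2 for all cells and 0.4 for follicle cells, with 598 genes kept out, among them 62 serpin genes, 84 list genes and 454 genes correlated with cycling markers above 0.2. Clusters were named from marker lists, and a cluster whose leading genes went against the best list was not given that name.

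UMI counts were summed per class and library and divided by the total of the sum (CPM). Levels have exact Poisson, folds exact conditional binomial and shares exact binomial (Clopper-Pearson) 95% intervals. PCR duplicates are removed by the UMIs, and these intervals cover counting error only. Folds were given in keratinocyte classes with at least 100 cells at 0 h, 4 h and 16 h, among genes with a mean of at least 5 CPM, and counted as higher or lower from 2-fold. Cells were thinned to 2000 UMIs for shares. No model was fitted, since each time point is 1 library, and edgeR 4.0.16 served only for TMM factors in an alternative. The fold and interval code was tested on simulated data.

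Every member was accounted for, and those with at least 20 CPM in a named class of at least 50 cells were described in each library. The lists were plasminogen activation, cathepsins, granzymes and leukocyte serine proteases, epidermal serine proteases, serpins of other clades, dissociation stress and wound keratinocyte genes. The members and lists were chosen with earlier results of these data known. Positions are from GENCODE vM21 and promoters from RefSeq (GRCm38.p6). Alternatives changed the scaling, the fold, the filter on low values, the weight of a cell, the mitochondrial limit, the doublet rate and the clustering resolution, and 1 added after the values were seen left the Cpa4 cluster out of OB.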

Additional observations from a re-analysis of the deposited data

Results flagged for a closer look

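These values were singled out because the folds of 1 gene in a pair of cell classes lay on opposite sides of 1, with 1 library per time point. Serpinb2 at 4 h over 0 h had a fold of 36.6 in OB and 0.849 in IFE.SB. At 16 h over 0 h Serpinb2 had a fold of 10.5 in OB and 0.566 in IFE granular cells. Serpinb3b at 4 h over 0 h had a fold of 1.22 in IFE granular cells and 0.202 in OB. None of these differences between classes was tested. Beside the OB values, the Cpa4 cluster made up 232 of 671 OB cells at 4 h and 0 of 472 at 0 h, and without it the Serpinb2 folds in OB were 12.5 and 3.74 and the Serpinb3b fold at 4 h was 0.266.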

How the results depend on the processing

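No paired analysis was possible because each time point is 1 library and the labels give no replicate numbers, and for the same reason no library could be left out. The count of members past the fold, in either direction, moved by over 1.5 times in these cases. At 4 h a fold of 3 gave 3 members in place of 5 in IFE.SB, 2 in place of 4 in IFE granular cells and 2 in place of 4 in uHF.B, a mean of at least 1 CPM gave 7 in uHF.B, and doubled resolution gave 4 in place of 2 in uHF.SB. At 16 h a fold of 1.5 gave 4 in place of 1 in IFE.B, 5 in place of 2 in IFE.SB, 5 in place of 2 in IFE granular cells, 2 in place of 1 in uHF.B, 4 in place of 1 in uHF.SB and 5 in place of 3 in OB. A fold of 3 at 16 h gave 0 in IFE.B, uHF.B and uHF.SB and 1 in IFE.SB. A mean of at least 1 CPM gave 2 in IFE.B, 3 in uHF.B and 5 in OB, and a mean of at least 20 CPM gave 0 in IFE.B and uHF.B. TMM scaling gave 0 in uHF.SB, equal weight of cells 2 in uHF.SB, and doubled resolution 0 in IFE.B and 2 in uHF.SB. At doubled resolution some classes held far fewer cells at 0 h, with 75 in uHF.SB (176 in the main setting), 429 in uHF.B (940) and 1413 in IFE.B (2984). The fold and the filter decide by construction which genes are counted, and for the other settings the cause was not tested. Leaving out the Cpa4 cluster, chosen after seeing the data, gave 5 and 2 members in OB in place of 5 and 3, against 31.4% and 18.2% of all genes.

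Of the levels at 0 h, equal weight of cells gave 228 CPM for Serpinb12 (248 in the main setting), 420 for Serpinb3b (439), 1179 for Serpinb5 (1279) and 676 for Serpinb7 (593) in IFE granular cells, and 1092 for Serpinb2 in IFE.SB (1245). With doublets removed at 2 times the rate the values were 426 for Serpinb3b, 1251 for Serpinb5 and 631 for Serpinb7 in IFE granular cells and 1286 for Serpinb2 in IFE.SB. Over barcodes that passed the filters the family made up 2150 CPM at 16 h (2134 over all) and 1985 at 2 d (1925). Of 454 alternative values of 88 named folds, 105 moved by more than the counting interval, 38 of them under TMM scaling, and 0 changed side of 1 where the fold was past 2. Depth limits the members with few UMIs, above all Serpinb11 in OB3 and the T cell members.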
